A study of Mus musculus with 3 samples.

Results

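The 9 genes described here are Stat2, Stat3, Irf1, Irf7, Irf9, Jak1, Jak2, Socs1 and Socs3, listed by name as components of cytokine and interferon signalling, among 41214 genes counted in mouse keratinocytes. All 9 symbols matched 1 gene identifier each, and all 9 genes passed the filter on low values (1 CPM or more in any library, CPM being counts scaled to a common library size), as did 11865 genes in all. The study held 3 RNA sequencing libraries of exponentially growing keratinocytes, the epithelial cells of the epidermis, all from C57BL/6 mice and made immortal with SV40. Each genotype had 1 library. These were wild type (wt), a knockout of ARPC4 (ARPC4 ko, whose sample title also holds the word Cre) and cells labelled Nrf2-EGFP, after the transcription factor Nrf2 and a green fluorescent protein (with the word High in the title). ARPC4 belongs to the actin-branching Arp2/3 complex. The labels and protocols say neither whether a culture is a clone or a pool nor which promoter drives Nrf2-EGFP.

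Cytokines and interferons bind receptors that carry Janus kinases (JAKs), which phosphorylate STAT proteins, and these then enter the nucleus and switch on target genes. Type I interferon acts through ISGF3, a complex that holds STAT2 and IRF9, whereas interferon gamma acts through STAT dimers and the induced factor IRF1, and cytokines of the interleukin 6 family act through STAT3. SOCS proteins are induced by the same signals and shut the receptors down. In epidermis these routes are known for antiviral defence, wound repair and the inflammation of psoriasis.

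With 1 library per genotype there is no spread between cultures and no test of genotypes, and p-values are left out. Values in parentheses after a ratio are its exact 95% interval, which covers counting error only. They compare libraries, not genotypes. A gene counts as past the size rule if its log2 fold (log2 ratio of CPM + 0.5) was at least 1 in size and that interval excluded 1. Both comparisons with wt share the single wt library.

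The libraries held between 22924294 and 25723959 gene counts. Arpc4, the targeted gene, stood at 94.2 CPM in wt, at 61.0 in ARPC4 ko and at 98.4 in Nrf2-EGFP. The ARPC4 ko value was 1.54-fold lower (1.44 to 1.65) than that of wt and did not pass the rule. Nfe2l2, which encodes Nrf2, was 1.35-fold lower (1.30 to 1.41) in Nrf2-EGFP. The libraries are named by their labels throughout. Of 15 keratinocyte markers 14 passed the filter, among them Krt5 and Krt14, and the list summed to 27109, 16337 and 21826 CPM (wt, ARPC4 ko, Nrf2-EGFP). In ARPC4 ko Krt5, Krt14 and Dsg3 passed the rule as lower than in wt, and in Nrf2-EGFP Dsc3 did. The shares of all genes compared that were lower were 2.06% in ARPC4 ko and 2.05% in Nrf2-EGFP. Of 16 immune markers, 2 passed the filter (Cd68 and Cd14), and the list summed to 7.87, 11.8 and 10.6 CPM, with 10, 9 and 11 genes at 0. Cd14 passed as higher in both comparisons with wt. Ptprc, the pan-leukocyte marker, had 1, 1 and 0 counts, and the macrophage markers Lyz2 and Adgre1 were at 0 in each library. Csf1r, a further macrophage marker of the list and below the filter, had 4, 22 and 22 counts. With no filter on low counts, 2 of the 16 immune markers passed as higher in each comparison with wt. Of all 41214 genes, 1.42% did so in ARPC4 ko and 1.07% in Nrf2-EGFP. Fibroblast, endothelial and melanocyte lists summed to at most 5.43 CPM in any library, and Vim, a mesenchymal filament gene, passed as higher in ARPC4 ko at 2.80 CPM against 0.53 in wt. The part of these markers in the results was not tested. In bulk RNA, fewer cells of a type and less RNA per cell cannot be told apart.

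Promoter sequences are shown first for 3 genes whose window before the start site holds a motif read by these factors and no annotated exon. The windows are the 250 bases before the RefSeq start (GRCm38.p6), written 5′ to 3′ on the strand of the gene, with motif matches in capitals. Irf1 (chr11:53769764-53770013, plus strand) holds a gamma-activated site, TTCNNNGAA, the palindrome bound by STAT dimers. Socs1 (chr16:10785537-10785786, minus strand) holds 2 overlapping matches to the core of the interferon-stimulated response element, GAAA, any 2 bases and GAAA, which ISGF3 and IRFs bind. Stat2 (chr10:128270248-128270497, plus strand) holds that core on the opposite strand.
Irf1: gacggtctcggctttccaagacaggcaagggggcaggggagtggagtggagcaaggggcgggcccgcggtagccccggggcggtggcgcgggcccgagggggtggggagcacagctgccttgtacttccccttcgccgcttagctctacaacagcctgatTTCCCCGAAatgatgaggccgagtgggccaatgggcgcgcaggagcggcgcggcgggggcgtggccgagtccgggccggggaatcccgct
Socs1: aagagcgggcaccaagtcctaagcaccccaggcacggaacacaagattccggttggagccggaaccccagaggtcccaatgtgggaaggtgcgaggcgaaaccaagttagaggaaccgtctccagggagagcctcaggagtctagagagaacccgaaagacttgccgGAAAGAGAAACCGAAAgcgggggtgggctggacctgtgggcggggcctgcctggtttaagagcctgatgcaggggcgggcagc
Stat2: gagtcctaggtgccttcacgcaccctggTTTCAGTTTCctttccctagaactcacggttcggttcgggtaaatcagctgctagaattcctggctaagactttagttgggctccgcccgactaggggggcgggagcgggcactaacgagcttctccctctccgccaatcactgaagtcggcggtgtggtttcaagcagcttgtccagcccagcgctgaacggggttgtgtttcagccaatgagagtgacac
The Irf1 match lies 90 to 82 bases before the start, the Socs1 matches 83 to 74 and 77 to 68, and the Stat2 match 222 to 213. These distances are from the RefSeq start. For Stat2 the window ends at 128270497, and the annotated start of the gene lies further on, at 128270559.

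Both motifs were searched on both strands in all RefSeq windows of the same length. The response element core was present in 2.98% of 32851 windows, or for 3.46% of 27025 genes, and the gamma-activated site in 7.02% of windows, or for 8.13% of genes. All 9 genes matched the RefSeq table, with 11 windows between them. The core was found for 2 of the 9 genes, Socs1 and Stat2, and the gamma-activated site for 2, Irf1 and Socs3, the last in a window that overlaps an annotated exon and is not shown. Neither string of letters occurred in the windows of Irf7, Irf9, Jak1, Jak2 or Stat3. The windows of Irf7, Irf9 and Jak1 overlap annotated exons of the same gene. So does a further Irf1 window (53770223 to 53770472), which holds neither motif. Both Irf9 windows (from 55603735 and 55604329) lie after the annotated start of that gene (55603571), so bases before that start were not searched. A match is a description of sequence only.

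The interferon regulatory factors Irf1, Irf7 and Irf9 and the feedback inhibitor Socs1 passed the size rule as higher in ARPC4 ko than in wt, whereas the kinases and both STAT genes lay between 0.87 and 1.17 of the wt level. Of the 9 genes, 4 passed as higher and none as lower. The share past the rule over the whole table was 6.76%, made up of 4.7% higher and 2.06% lower. The median log2 fold of the 9 was 0.54, beside -0.01 over all genes. The 9 genes were chosen with earlier results of these data known, so the contrast with all genes is a description and no test. In Nrf2-EGFP none of the 9 passed in either direction (5.61% of all genes, 3.57% higher and 2.05% lower), and their median was 0.06. The 4 genes that passed in ARPC4 ko lay between 2.03-fold and 2.60-fold, close to the rule's limit, and with a pseudocount of 2 CPM in place of 0.5 none of them passed.

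**Figure D1:**
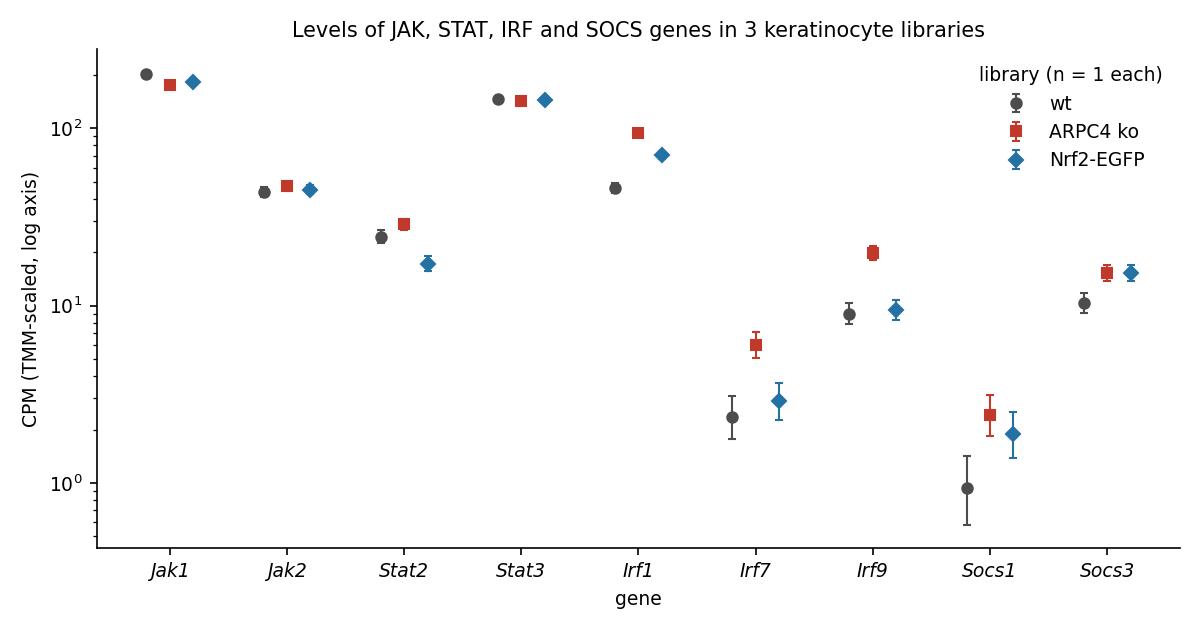
CPM of the 9 genes (log axis) in the wt, ARPC4 ko and Nrf2-EGFP libraries, 1 library each; bars are exact Poisson 95% intervals of the count and cover counting error only. Irf1 is ordered wt, Nrf2-EGFP, ARPC4 ko (46.1, 70.5 and 93.7 CPM), Irf7 and Irf9 stand apart in ARPC4 ko, and Stat3 and Jak2 are at nearly 1 level in each library.

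Irf1, a transcription factor induced by interferon gamma and needed for antigen presentation genes, had 46.1 CPM in wt (1037 counts), 93.7 in ARPC4 ko (2279 counts) and 70.5 in Nrf2-EGFP (1752 counts). The 3 counting intervals did not overlap, and wt was the lowest. Irf1 was 2.03-fold higher (1.89 to 2.19) in ARPC4 ko than in wt, a log2 fold of 1.02, and 1.53-fold higher (1.42 to 1.65) in Nrf2-EGFP, a log2 fold of 0.61. ARPC4 ko stood at 1.33 times Nrf2-EGFP (1.25 to 1.42). Of the genes compared, 542 had a larger log2 fold than Irf1 in ARPC4 ko and 963 in Nrf2-EGFP. The gene lies on chromosome 11 (53770014 to 53778374 in mm10, ENSMUSG00000018899), and Gm17334, which overlaps it on the other strand, had 0 to 2 counts.

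Irf7, the factor that amplifies type I interferon production, had 2.36 CPM in wt (53 counts), 6.01 in ARPC4 ko (146 counts) and 2.90 in Nrf2-EGFP (72 counts). ARPC4 ko stood above the other libraries, whose intervals overlapped. The ratio to wt was 2.55 (1.85 to 3.56) in ARPC4 ko and 1.23 (0.85 to 1.79) in Nrf2-EGFP. Set against Nrf2-EGFP, ARPC4 ko gave a ratio of 2.07 (1.55 to 2.79), with a log2 fold of 0.94 that did not pass. The gene (chromosome 7, 141262706 to 141266481, ENSMUSG00000025498) shares 45 bases with Phrf1 on the opposite strand. Phrf1 was far more counted, at 148 CPM in wt, then 135 in ARPC4 ko and 147 in Nrf2-EGFP, and whether reads were counted by strand is not known here. The ratio of Phrf1 to wt was 0.91 in ARPC4 ko. The part of Phrf1 reads in the Irf7 counts was not tested.

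Irf9, the DNA-binding subunit of ISGF3, had 9.03 CPM in wt (203 counts), 19.9 in ARPC4 ko (483 counts) and 9.46 in Nrf2-EGFP (235 counts). It was high in ARPC4 ko only, with overlapping intervals in the other libraries. Irf9 was 2.20-fold higher (1.86 to 2.61) in ARPC4 ko than in wt, whereas the ratio of Nrf2-EGFP to wt was 1.05 (0.86 to 1.27). It was the member that passed between ARPC4 ko and Nrf2-EGFP, 2.1-fold higher (1.79 to 2.47), and with a pseudocount of 2 CPM its log2 fold of 0.93 did not pass. That is 1 of 9, beside 2.98% of the whole table, made up of 2.01% higher and 0.961% lower. Irf9 lies on chromosome 14 (55603571 to 55610030, ENSMUSG00000002325) and shares 123 bases with Rnf31 on the same strand, at 14.4 CPM in wt, then 17.5 in ARPC4 ko and 16.3 in Nrf2-EGFP. Rnf31 was 1.21-fold higher in ARPC4 ko than in wt.

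Stat2, the partner of IRF9 in ISGF3, had 24.5 CPM in wt (551 counts), 28.7 in ARPC4 ko (698 counts) and 17.3 in Nrf2-EGFP (429 counts). It was thus lowest in Nrf2-EGFP and highest in ARPC4 ko. The ratio to wt was 1.17 (1.05 to 1.31) in ARPC4 ko, and Stat2 was 1.42-fold lower (1.25 to 1.61) in Nrf2-EGFP. The direct ratio of ARPC4 ko to Nrf2-EGFP was 1.66 (1.47 to 1.88), a log2 fold of 0.72 that did not pass. Stat2 (chromosome 10, 128270559 to 128292849, ENSMUSG00000040033) was the member with the lowest log2 fold against wt in Nrf2-EGFP, at -0.49, and 91.5% of genes compared had a higher one there.

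The 2 subunits of ISGF3 among the 9 genes therefore differed in their ratios. A ratio of 2 genes within a library does not depend on how libraries are scaled. The ratio of Irf9 to Stat2 counts was 1.88-fold higher in ARPC4 ko than in wt (1.54 to 2.29, a 95% Wald interval on the log scale, counting error only). In Nrf2-EGFP it was 1.49-fold higher (1.19 to 1.86), where Stat2 stood at 0.70 and Irf9 at 1.05 of wt. For Irf1 to Irf9 the fold was 1.46 (1.19 to 1.79) between Nrf2-EGFP and wt and 0.92 (0.77 to 1.11) between ARPC4 ko and wt. That of Irf7 to Irf9 was 1.16 (0.81 to 1.65) between ARPC4 ko and wt and 1.17 (0.79 to 1.75) between Nrf2-EGFP and wt, so a difference was not detectable at this depth.

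Stat3, the transducer of interleukin 6 family and interleukin 22 signals in keratinocytes, had 147 CPM in wt (3304 counts), 143 in ARPC4 ko (3473 counts) and 145 in Nrf2-EGFP (3602 counts). The intervals of the 3 libraries overlapped. The ratio to wt was 0.97 (0.93 to 1.02) in ARPC4 ko and 0.99 (0.94 to 1.03) in Nrf2-EGFP. With scaling by total counts, under which the all-gene median went from -0.01 to 0.09, Stat3 turned from a log2 fold of -0.04 to 0.06 in ARPC4 ko. These counts measure RNA and say nothing of phosphorylated protein. Stat3 lies on chromosome 11 (100885098 to 100939540, ENSMUSG00000004040) and shares 72 bases with Stat5a on the other strand, which had at most 6.46 CPM.

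Jak1, the kinase shared by interferon and interleukin 6 family receptors, had 202 CPM in wt (4542 counts), 176 in ARPC4 ko (4289 counts) and 181 in Nrf2-EGFP (4505 counts). It was highest in wt, by 1.14-fold (1.1 to 1.19) over ARPC4 ko and 1.11-fold (1.07 to 1.16) over Nrf2-EGFP. Jak2, the kinase of interferon gamma, growth hormone and colony-stimulating factor receptors, had 43.7 CPM in wt, then 47.0 in ARPC4 ko and 45.2 in Nrf2-EGFP, with overlapping intervals. Its ratio to wt was 1.08 (0.99 to 1.17) in ARPC4 ko and 1.03 (0.95 to 1.13) in Nrf2-EGFP. Neither kinase passed the rule in any comparison. The ratio of Irf1 to Jak1 counts differed from wt by 2.33-fold in ARPC4 ko (2.14 to 2.53) and by 1.70-fold in Nrf2-EGFP (1.56 to 1.86), upwards in both. Jak1 is on chromosome 4 (101152367 to 101265282, ENSMUSG00000028530) and Jak2 on chromosome 19 (29251828 to 29313080, ENSMUSG00000024789).

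Socs1, an inhibitor that blocks JAKs downstream of interferon receptors, had 0.934 CPM in wt (21 counts), 2.43 in ARPC4 ko (59 counts) and 1.89 in Nrf2-EGFP (47 counts). It had the fewest counts of the 9 genes, and wt was the lowest library. The ratio to wt was 2.60 (1.56 to 4.50) in ARPC4 ko, which passed with a log2 fold of 1.03. In Nrf2-EGFP the ratio was 2.03 (1.19 to 3.57), but the log2 fold after the pseudocount was 0.74 and did not pass. The direct ratio of ARPC4 ko to Nrf2-EGFP was 1.28 (0.86 to 1.92), so a difference was not detectable at this depth. With a pseudocount of 2 CPM the log2 fold in ARPC4 ko was 0.59. Socs1 is on chromosome 16 (10782240 to 10785536, ENSMUSG00000038037).

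Socs3, the inhibitor that binds the shared interleukin 6 receptor chain gp130, had 10.4 CPM in wt (233 counts), 15.3 in ARPC4 ko (371 counts) and 15.3 in Nrf2-EGFP (380 counts). Both other libraries stood above wt, with intervals that did not overlap that of wt. The ratio to wt was 1.47 (1.25 to 1.74) in ARPC4 ko and 1.48 (1.25 to 1.74) in Nrf2-EGFP, and neither passed. ARPC4 ko and Nrf2-EGFP had a ratio of 0.998 (0.863 to 1.15). The ratio of Socs3 to Stat3 counts was 1.51-fold higher in ARPC4 ko than in wt (1.28 to 1.80) and 1.5-fold higher in Nrf2-EGFP (1.26 to 1.77). That of Socs3 to Socs1 was 1.76-fold lower in ARPC4 ko than in wt (1.04 to 2.98) and 1.37-fold lower in Nrf2-EGFP (0.80 to 2.35), an interval that includes 1. Socs3 is on chromosome 11 (117966079 to 117970047, ENSMUSG00000053113).

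**Figure D2:**
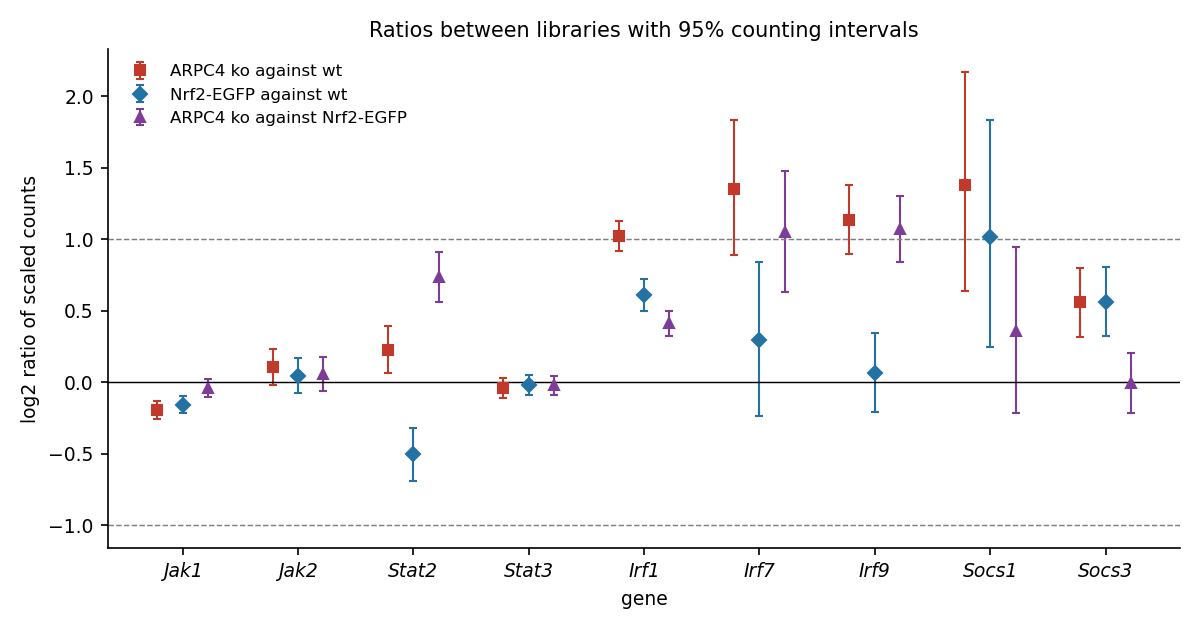
Log2 ratio of scaled counts of each gene for ARPC4 ko against wt, Nrf2-EGFP against wt and ARPC4 ko against Nrf2-EGFP; bars are exact 95% counting intervals and dashed lines mark 2-fold. Stat2 lies below 0 in Nrf2-EGFP (ratio 0.70) and above it in ARPC4 ko (1.17), and Irf9 lies near 2-fold in both comparisons of ARPC4 ko.

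The 9 genes took up different places among all genes. By log2 fold in ARPC4 ko against wt, 3.29% of genes compared were higher than Irf7, 3.88% higher than Irf9, 4.42% higher than Socs1 and 4.57% higher than Irf1. For Socs3 the share was 12.2%, for Stat2 26.9%, for Jak2 37.6%, for Stat3 53.1% and for Jak1 70.2%. In Nrf2-EGFP against wt the shares were 6.08% for Socs1, 8.12% for Irf1 and 9.79% for Socs3, whereas Irf9 was at 42.5% and Irf7 at 23.3%.

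**Figure D3:**
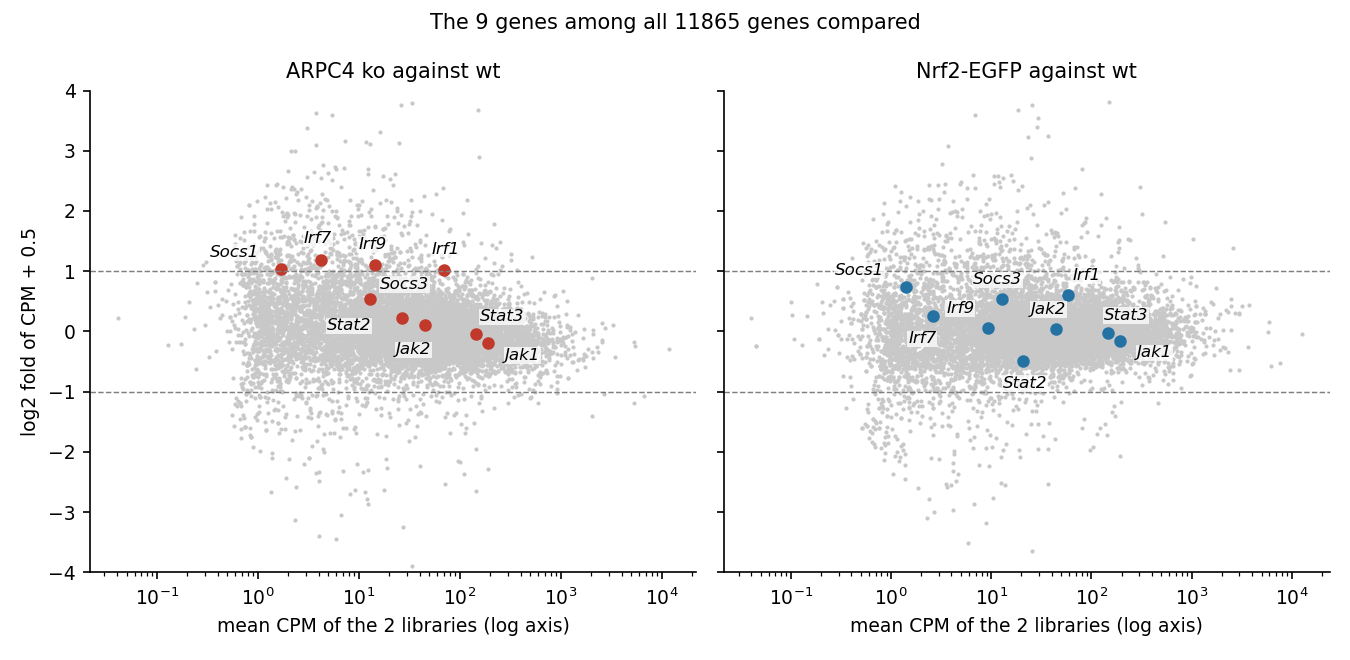
Log2 fold of CPM + 0.5 against wt (vertical axis) by mean CPM of the 2 libraries (log axis), with the 9 genes coloured over the 11865 genes compared in grey; the axis leaves out 5 genes in ARPC4 ko and 0 in Nrf2-EGFP. Irf1, Irf7, Irf9 and Socs1 lie at or just above the dashed 2-fold line in ARPC4 ko, and in Nrf2-EGFP all 9 lie between the lines.

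Per length, the order of the 9 genes ran from Jak1 to Socs1 in each library. Levels here are CPM per kb of merged exons, a scale on which genes can be compared. In wt Jak1 had 27.9, Stat3 15.4, Irf1 11.6, Jak2 8.69, Stat2 4.13, Socs3 3.58, Irf9 1.68, Irf7 0.62 and Socs1 0.32. Of neighbours in that order, Stat2 and Socs3, and Irf7 and Socs1, overlapped in their counting intervals. In ARPC4 ko Irf1 stood at 23.6, beside 24.4 for Jak1, with overlapping intervals, and above Stat3 at 15.0. In Nrf2-EGFP it stood at 17.7, between Jak1 (25.1) and Stat3 (15.2). With the length of the longest coding transcript in place of merged exons, a choice made after the data were seen, Irf1 ranked first in ARPC4 ko, Jak1 second, Irf9 in place 5 (from 7) and Socs3 in place 7 (from 5). The order in wt and in Nrf2-EGFP was the same with both lengths.

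The JAK and SOCS genes were also set in their whole families, per length. Among 4 JAK genes Jak1 was the most abundant, with 65.5% of the summed level in wt and 59.0% in ARPC4 ko. Jak2 came next with 20.4% in wt and 22.6% in ARPC4 ko. Among 8 SOCS genes Socs3 was in place 5 and Socs1 in place 7 in each library. Socs3 held 8.29% of the sum in wt and 11.3% in ARPC4 ko, and Socs1 0.74% and 1.78%.

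**Figure D4:**
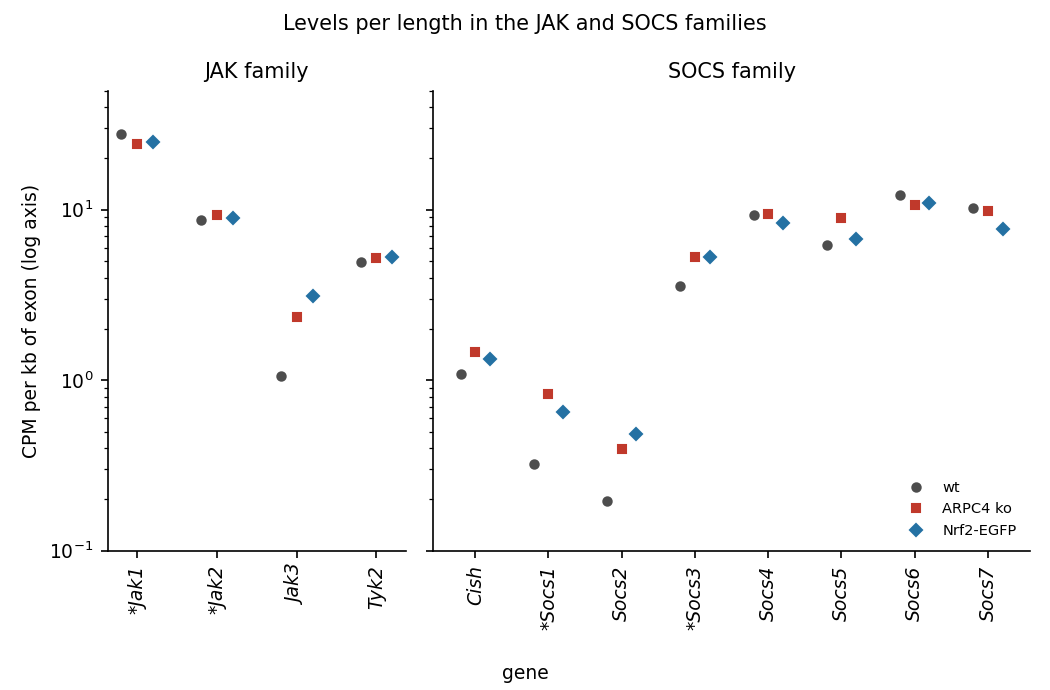
CPM per kb of merged exons (log axis) for the JAK and SOCS genes in the 3 libraries, 1 point per library; stars mark Jak1, Jak2, Socs1 and Socs3. Jak1 is the most abundant JAK (27.9 in wt), and Jak3, Socs1 and Socs2 are low genes with the wt library lowest.

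Of the 19 other family genes, 16 passed the filter. In ARPC4 ko 1 of these was past the rule as higher and none was lower, and in Nrf2-EGFP 2 passed as higher and none as lower. For the list counts here and below, the shares of all genes that were higher were 4.7% in ARPC4 ko and 3.57% in Nrf2-EGFP. With a pseudocount of 2 CPM they were 2.62% and 2.17%, and with a filter of 10 CPM 2.72% and 2.6%. Between ARPC4 ko and Nrf2-EGFP the share was 2.01%. In a list of 16 genes, 1 gene past the rule is near these shares. The median log2 fold over all 19 was 0.11 in ARPC4 ko and 0.0019 in Nrf2-EGFP. Jak3, a kinase best known from the common gamma chain receptors of lymphocytes, had 5.69 CPM in wt, then 12.5 in ARPC4 ko and 16.7 in Nrf2-EGFP. It passed in both comparisons with wt, at log2 folds of 1.08 and 1.47, but with a pseudocount of 2 CPM no gene of the list passed in ARPC4 ko and 1, Jak3, in Nrf2-EGFP. The receptor chain it binds, Il2rg, was below the filter, with 16 counts in wt, then 9 in ARPC4 ko and 5 in Nrf2-EGFP. Socs2, a feedback inhibitor of growth hormone signalling, passed in Nrf2-EGFP with a log2 fold of 1.11 (42 counts in wt and 115 in Nrf2-EGFP), and in ARPC4 ko its log2 fold was 0.84. Il2rg was named here after its values were seen.

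Among the ligands of JAK-coupled receptors, 8 of 25 listed genes passed the filter, and in ARPC4 ko 3 of these were higher by the rule and 1 lower. Lif, an interleukin 6 family cytokine that signals through gp130, had 44.2 CPM in wt, then 118 in ARPC4 ko and 95.1 in Nrf2-EGFP, with log2 folds against wt of 1.41 and 1.1. The colony-stimulating factors Csf2 and Csf3 had log2 folds of 2.56 and 2.51 in ARPC4 ko and 1.996 and 1.97 in Nrf2-EGFP, both from under 2 CPM in wt. Tslp, an epithelial cytokine that signals through STAT5, was lower in ARPC4 ko with a log2 fold of -1.35. In Nrf2-EGFP 4 passed as higher and none as lower, the further one being Il24 (log2 fold 1.48), a cytokine that acts through STAT3. The interferons Ifnb1, Ifng, Ifnk, Ifne, Ifnl2 and Ifnl3, and Il6, Osm and Il22, had 0 counts in each library. For each of these the upper limit was 3 counts, or 0.13 CPM in wt and 0.12 in the others. The median over the 8 was 0.70 in ARPC4 ko and 0.90 in Nrf2-EGFP, and over all 25 genes it was 0.00 in both.

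Of 28 receptor genes, 18 passed the filter and none of these passed the size rule in either comparison with wt. Their median log2 fold was 0.32 in ARPC4 ko (15 of 18 above 0) and 0.29 in Nrf2-EGFP (14 of 18), and over all 28 it was 0.19 and 0.11. Il6st, which encodes gp130, had 151 CPM in wt, then 265 in ARPC4 ko and 184 in Nrf2-EGFP, the member with the highest log2 fold in ARPC4 ko at 0.81. Ifnar1 and Ifnar2, the type I interferon receptor chains, had log2 folds of 0.39 and 0.41 in ARPC4 ko. Il6ra, the chain that pairs with gp130 in the interleukin 6 receptor, had the lowest log2 fold of the 18 in both, at -0.82 in ARPC4 ko (14.5 CPM, against 25.9 in wt) and -0.61 in Nrf2-EGFP (16.8 CPM). Il6st, Il6ra and the interferon receptors were named after their values were seen. Of the 11 other inhibitors, 1 passed as higher in ARPC4 ko and none as lower. Usp18, which holds back the type I interferon receptor and is an interferon target itself, had 1.29 CPM in wt, then 6.21 in ARPC4 ko and 1.69 in Nrf2-EGFP. The median of the inhibitors was 0.09 in ARPC4 ko and 0.06 in Nrf2-EGFP, and none passed in Nrf2-EGFP.

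Upstream of the IRFs, sensors and kinases had 2 of 15 measured genes (18 listed) past the rule as higher and none as lower in ARPC4 ko, and none in either direction in Nrf2-EGFP. Ikbke, a kinase that phosphorylates IRF3 and IRF7, had 18.6 CPM in wt, then 47.8 in ARPC4 ko and 30.2 in Nrf2-EGFP, a log2 fold of 1.33 in ARPC4 ko. Tlr2, a receptor of bacterial lipopeptides, had 5.56, 12.7 and 5.84 CPM in the same order, a log2 fold of 1.12 in ARPC4 ko, and did not pass with a pseudocount of 2 CPM. Tbk1, the kinase most like Ikbke, was at 61.8, 60.5 and 61.3 CPM, and was named after its values were seen. The median of these genes was 0.29 in ARPC4 ko and 0.02 in Nrf2-EGFP.

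Of 28 ISGF3 targets, 19 passed the filter, and 10 of these were higher and none lower in ARPC4 ko by the rule, but with a filter of 10 CPM 1 of 9 was higher. Of the 10, Ifit1, Oas1a and Rtp4 reached 1 CPM in ARPC4 ko alone, so they entered through the library where they were high. The median over all 28 was 0.81, and over the 19 it was 1.16. Oasl2, Oas1a, Rtp4 and Xaf1 had log2 folds of 3.09, 2.15, 2.03 and 1.88, from 9, 5, 4 and 52 counts in wt. In Nrf2-EGFP 3 of the 19 passed as higher and none as lower (median 0.37 over all 28, and 0.44 over the 19), and none with a filter of 10 CPM. They were Oasl2 (1.81), Rsad2 (1.36) and Isg15 (1.1). With a pseudocount of 2 CPM 5 were higher in ARPC4 ko and none in Nrf2-EGFP. Between ARPC4 ko and Nrf2-EGFP 5 passed as higher and none as lower, but none passed with a pseudocount of 2 CPM or with a filter of 10 CPM. These 5 also include Ifit1, Oas1a and Rtp4, which entered through ARPC4 ko, the library where they were high. The median log2 fold between ARPC4 ko and Nrf2-EGFP was 0.41 over all 28 and 0.66 over the 19. Reads of near-identical copies in the Oas1 and Ifit families could be lost or split by the counting.

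Of 20 genes listed as targets of interferon gamma and IRF1, 18 symbols matched and 15 passed the filter. In ARPC4 ko 11 of the 15 passed as higher and none as lower (median 1.07, and 1.05 over the 18), and in Nrf2-EGFP 2 passed as higher and none as lower (median 0.50, and 0.28 over the 18). Psmb8, an immunoproteasome subunit, had 1.42 CPM in wt, then 8.27 in ARPC4 ko and 7.20 in Nrf2-EGFP. Gbp2 and Gbp3, interferon-induced GTPases, had log2 folds of 1.99 and 1.48 in ARPC4 ko. Tapbp, which loads peptide on MHC class I and shares bases with Zbtb22 on the same strand (27.8, 28.4 and 31.3 CPM), had 112 CPM in wt, then 305 in ARPC4 ko and 239 in Nrf2-EGFP and passed in both comparisons with wt. Cxcl10 and Psmb9, among the 11, reached 1 CPM in ARPC4 ko alone. In ARPC4 ko 6 of the 15 passed as higher with a pseudocount of 2 CPM, and 6 of 8 with a filter of 10 CPM. Cxcl9, Cxcl11 and Ciita had 0 counts in each library, and were named after their values were seen.

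Of 20 STAT3 targets, 16 passed the filter, and 1 was higher and none lower by the rule in ARPC4 ko, and 2 higher and none lower in Nrf2-EGFP. The median over all 20 was 0.08 in ARPC4 ko and 0.03 in Nrf2-EGFP. The gene in ARPC4 ko was Lcn2, a siderophore-binding protein that had no count in wt (0) but 40 in ARPC4 ko. Those in Nrf2-EGFP were Timp1, a metalloproteinase inhibitor (18.7 CPM in wt and 61.1 in Nrf2-EGFP), and Twist1, a mesenchymal transcription factor (6 counts in wt and 47 in Nrf2-EGFP). Lcn2 and Twist1 reached 1 CPM in the library where they were high alone. With a pseudocount of 2 CPM neither passed, which left none higher in ARPC4 ko and 1 in Nrf2-EGFP. Many of these genes have other regulators. Cd14 and Csf1r, immune markers that are not targets in these lists, had 42 and 4 counts in wt, 107 and 22 in ARPC4 ko and 122 and 22 in Nrf2-EGFP.

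**Figure D5:**
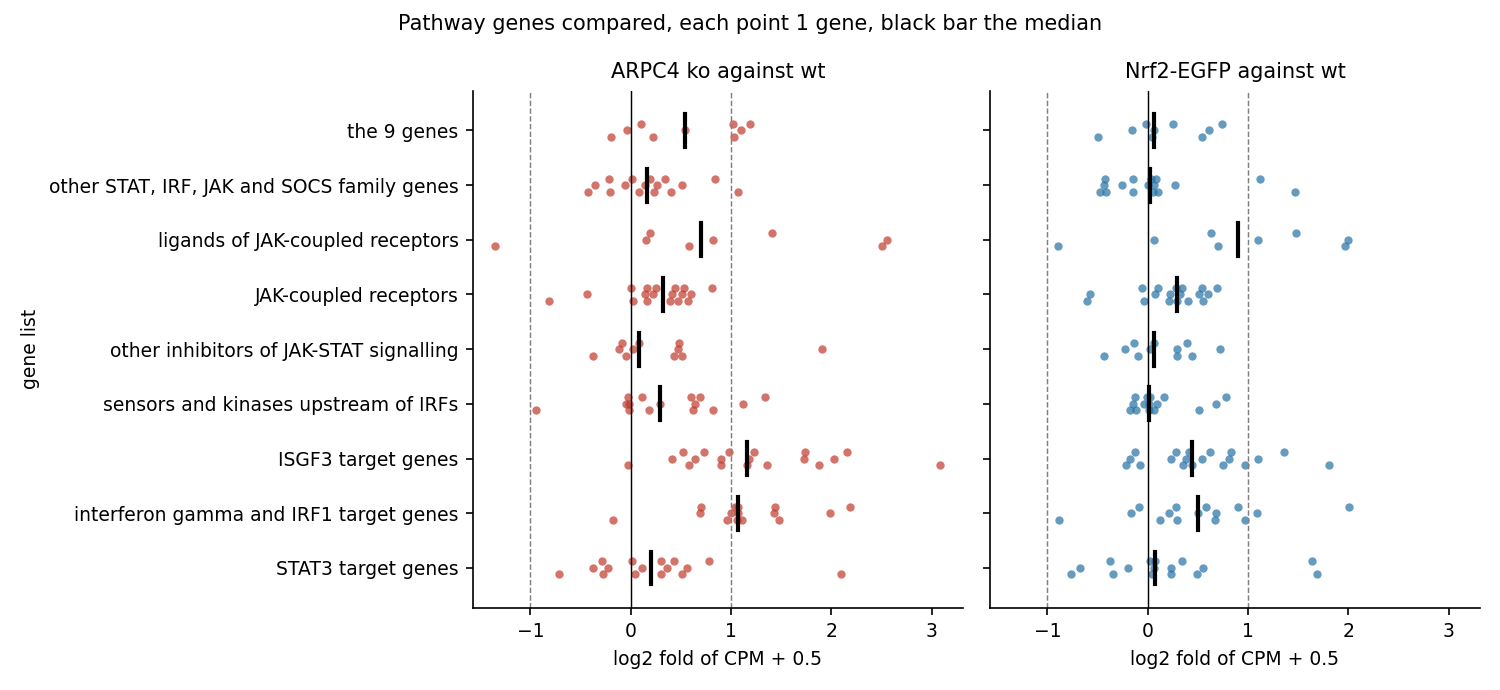
Log2 fold of CPM + 0.5 against wt of each gene above the filter, by gene list, for ARPC4 ko (left) and Nrf2-EGFP (right); black bars are medians and dashed lines mark 2-fold. The medians of the ISGF3 and interferon gamma lists lie at 1.16 and 1.07 in ARPC4 ko and at 0.44 and 0.50 in Nrf2-EGFP, and the receptor list has no gene past 2-fold.

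Genes with the most similar pattern were sought over the 3 libraries, by the Euclidean distance of the pair of log2 folds against wt, among 8471 named genes with at least 10 CPM in each library. Nearest to Irf1 were Eif2ak2, at a distance of 0.03, and B2m, at 0.04. Both are also in the target lists above. Nearest to Irf9 were Nr1d2 (0.07) and Synpo (0.18), and to Irf7 Klhl5 (0.11) and Tgm1 (0.16). For Stat2 they were Aldh7a1 (0.06) and Lxn (0.07). For Socs1 they were Hivep3 (0.03) and Rab15 (0.05), and for Socs3 Rab34 (0.01) and Foxp4 (0.02). For Stat3 they were Arpp19 and Arhgap12, for Jak1 Vbp1 and Gpr89, and for Jak2 Tinf2 and Zfp335, each within 0.01. Of the near genes named here, only those of Irf1 are in the target lists. The number of near genes differed between the members. Within a distance of 0.1 lay 788 genes for Stat3, 699 for Jak1 and 628 for Jak2, but 75 for Socs3, 17 for Socs1, 13 for Irf1, 2 for Stat2, 1 for Irf9 and 0 for Irf7. Irf7, Irf9 and Socs1 were themselves below 10 CPM in wt, so genes as low as these were not searched. Counting error also moves the distances, as the ratio of Irf7 to wt in ARPC4 ko had an interval of 1.85 to 3.56. The low counts for these members therefore do not show that their patterns are rare. A pair of folds over 3 libraries is a coarse measure, and the distances are a description.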

How the data were processed

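Poly(A) RNA of 3 keratinocyte cultures, 1 per genotype, was sequenced as strand-specific libraries (65 bases, single end), per the labels' protocols. TopHat2 2.1.0, Bowtie 1.1 and HTSeq were named with the mm10 build, per the submitters' processing notes, but their settings, any use of strand in counting, and the gene annotation are not known here. Each deposited table holds unnormalised whole-number counts for every gene. Entries that name no gene (8.22% to 9.08% of each table) were left out. Symbols, coordinates and merged exon lengths came from GENCODE M21 (GRCm38), with 40254 identifiers matched. Promoter windows came from RefSeq (GRCm38.p6).

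TMM scaling used edgeR 4.0.16 under R 4.3.3 (factors of 0.981 for wt, 1.06 for ARPC4 ko and 0.966 for Nrf2-EGFP). Comparisons took genes reaching 1 CPM in any library. The log2 fold carries a pseudocount of 0.5 CPM, which understates differences of genes with few counts, whereas ratios carry none. Ratio intervals are Clopper-Pearson intervals at 95%, conditional on the gene's sum. Reads carried no molecular identifiers and may be copies of 1 molecule, so intervals and floors cover counting error only. The steps were tested on simulated data. Alternatives were other scalings, pseudocounts, filters and a 1.5-fold rule. The members and gene lists were chosen with earlier results of these data known. Named from each list were up to 4 genes past the rule with the largest log2 fold in size against wt. Genes of the marker lists, ligands at 0 counts, genes above the filter in 1 library alone and those so marked were picked with their values known. For similar patterns the nearest genes by distance were named.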

Additional observations from a re-analysis of the deposited data

How the results depend on the processing

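With 1 library per genotype no library could be left out, and no paired analysis was possible because no group has more than 1 library. In ARPC4 ko against wt the count of 4 genes past the rule as higher was 0 with a pseudocount of 2 CPM (log2 folds of 0.99 for Irf1, 0.88 for Irf7, 0.99 for Irf9 and 0.59 for Socs1) and 2 with a filter of 10 CPM, which left out Irf7 and Socs1. It stayed at 4 under the other 6 alternatives, among them the 1.5-fold rule, by which 10.8% of all genes were higher. In Nrf2-EGFP against wt the count of 0 became 2 with a 1.5-fold rule (Irf1 and Socs1), by which 8.61% of all genes were higher. It stayed at 0 under the other 7. Between ARPC4 ko and Nrf2-EGFP the count of 1 became 2 with scaling by total counts and with a pseudocount of 0.1 CPM (Irf7 and Irf9). It became 3 with a 1.5-fold rule (Stat2, Irf7 and Irf9) and 0 with a pseudocount of 2 CPM. The shares of all genes that were higher under these settings were, in the same order, 2.54%, 2.94%, 5.85% and 0.674%. None of the 9 genes passed as lower under any of the 8 alternatives in any comparison.

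Of 135 log2 folds recomputed under 5 scalings and pseudocounts, 121 kept their direction and side of the rule, 5 no longer passed, 2 newly passed and 7 changed sign. The 7 were close to 0. With scaling by total counts Stat3 in ARPC4 ko against wt became 0.0649, and between ARPC4 ko and Nrf2-EGFP Stat3 became 0.11, Jak1 0.0882 and Socs3 0.12. With the upper quartile these 3 became 0.0196, 0.0014 and 0.0365. Over all genes, a pseudocount of 2 CPM left 311 genes higher and 143 lower in ARPC4 ko against wt, in place of 558 and 244, a filter of 10 CPM left 253 and 121, and a 1.5-fold rule gave 1285 and 740. For Nrf2-EGFP against wt these 3 settings gave 258 and 104, 242 and 92, and 1021 and 679, in place of 423 and 243. For ARPC4 ko against Nrf2-EGFP they gave 80 and 67, 52 and 62, and 694 and 401, in place of 239 and 114. Among the lists, the 3 other scalings moved no list count in ARPC4 ko against wt by over 2. Depth limits Socs1, with 21 counts in wt, and Irf7, with 53.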
